A study of Mus musculus with 10 samples.

Results

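The 5 enzymes of the urea cycle (Cps1, Otc, Ass1, Asl and Arg1) and 5 other genes typical of periportal hepatocytes (Gls2, Hal, Sds, Cyp2f2 and Etnppl) were followed across 10 mouse liver libraries. The 10 genes were chosen by symbol from the 46071 gene rows of the deposited count table, and all 10 passed the filter on low counts that kept 14820 genes. FL livers (3 libraries, 5 to 7) came from offspring of a LIRKO father (insulin receptor IRlox/lox with Albumin-Cre+/-) and a control mother. ML livers (3 libraries, 8 to 10) came from offspring of a LIRKO mother and a control father. Control livers (4 libraries, 1 to 4) came from offspring of parents that both were IRlox/lox; Albumin-Cre-/-, so every parent in the series carried the floxed insulin receptor gene, and the control line had been bred without Cre for several generations. Albumin-Cre is expressed in hepatocytes, so a LIRKO parent lacks the receptor in these cells and not in the whole body. Whether an offspring inherited Cre, and its strain, sex, age, litter and feeding state, are not in the labels. They name each library as a sample without saying that it is 1 animal. The p-values below therefore reflect only how far these libraries differ from one another, which may in part be technical.

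The urea cycle turns ammonia, released when amino acids are broken down, into urea. Carbamoyl phosphate synthetase 1 (Cps1) and ornithine transcarbamylase (Otc) work in the mitochondrion, and argininosuccinate synthase (Ass1), argininosuccinate lyase (Asl) and arginase 1 (Arg1) complete the cycle in the cytosol. The cycle is most active in periportal hepatocytes, which lie where blood enters the lobule, and it is known to be raised by glucagon and glucocorticoids and lowered by insulin. In bulk liver RNA, fewer periportal cells and less of a transcript per cell cannot be told apart.

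Libraries held 23192571 to 31116742 counts in FL, 26614915 to 34568205 in ML and 18655506 to 39379940 in control, the lowest being control 1. ML 9 stood apart. Its TMM scaling factor was 0.577, against 0.933 to 1.16 in the other 9 libraries, and the 10 genes took 0.618% of its counts, against 1.04% to 1.35% elsewhere. For short genes (exons under 1000 bp in all), the median log2 deviation from the gene's mean over libraries was 1.67 in ML 9, 0.34 in ML 10 and 0.51 in control 1, and between -0.56 and -0.10 in the other 7. Fold changes that moved by over 1.5 times without ML 9 or without control 1 are therefore also given without that library. Insr, the gene deleted in LIRKO hepatocytes, lay at 59.3 to 77.6 CPM (counts scaled to a common library total with the TMM factors) in FL, 28.2 to 55.2 CPM in ML and 62.9 to 128 CPM in control livers. The hepatocyte markers (10 of 10 detected, among them albumin) summed to 75934 to 84138 CPM in FL, 67756 to 126712 CPM in ML and 75064 to 105733 CPM in control libraries.

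Promoter sequences are shown for the gene with the lowest p of the 10 (Etnppl) and for 2 genes whose FL and ML values did not overlap, in opposite directions (Cyp2f2, higher in FL, and Otc, lower in FL). RefSeq's table (GRCm38.p6) gave a window of 250 bases before to 50 after the start for 5 of the 10 genes, Otc, Ass1, Hal, Cyp2f2 and Etnppl. Cps1, Asl, Arg1, Gls2 and Sds had none there. Capitals mark the matches to 4 short motifs of factors known to act on genes of fasting and of hepatocytes, searched on both strands, and 2 of the 4 windows printed hold a match. Etnppl has 2 overlapping windows, for 2 starts. The first, chr3:130617198-130617497, is set on the start of the gene as annotated, and the second, chr3:130617325-130617624, on a start further downstream. The Cyp2f2 window chr7:27119705-27120004 and the Otc window chrX:10252055-10252354, each on the plus strand.
Etnppl (first window): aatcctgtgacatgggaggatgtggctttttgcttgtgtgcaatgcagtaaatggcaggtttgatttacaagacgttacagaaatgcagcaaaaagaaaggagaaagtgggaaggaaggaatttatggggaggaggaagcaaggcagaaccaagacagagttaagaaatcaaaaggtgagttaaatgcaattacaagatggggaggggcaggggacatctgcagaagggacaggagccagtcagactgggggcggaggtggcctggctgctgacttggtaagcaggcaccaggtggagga
Etnppl (second window): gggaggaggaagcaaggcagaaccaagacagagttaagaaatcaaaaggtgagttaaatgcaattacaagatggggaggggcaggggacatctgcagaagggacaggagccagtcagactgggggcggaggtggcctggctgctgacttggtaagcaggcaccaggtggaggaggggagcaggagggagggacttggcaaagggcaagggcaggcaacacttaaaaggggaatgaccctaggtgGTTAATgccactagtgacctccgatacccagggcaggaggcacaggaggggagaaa
Cyp2f2: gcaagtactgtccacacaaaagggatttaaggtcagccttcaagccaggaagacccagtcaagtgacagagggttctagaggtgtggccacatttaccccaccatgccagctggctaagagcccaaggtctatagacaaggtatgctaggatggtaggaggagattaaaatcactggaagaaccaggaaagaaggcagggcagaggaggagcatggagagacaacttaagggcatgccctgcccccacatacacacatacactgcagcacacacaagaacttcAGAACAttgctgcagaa
Otc: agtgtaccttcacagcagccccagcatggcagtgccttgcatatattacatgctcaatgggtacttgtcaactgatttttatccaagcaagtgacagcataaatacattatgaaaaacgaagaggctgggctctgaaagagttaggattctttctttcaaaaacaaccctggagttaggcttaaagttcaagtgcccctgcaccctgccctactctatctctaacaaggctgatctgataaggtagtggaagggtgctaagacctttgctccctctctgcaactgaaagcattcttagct

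The first Etnppl window holds none of the motifs. The second holds the HNF1 half-site GTTAAT, whose first base is at position -6 from the downstream start. This motif is in 7.1% of the 32817 promoter windows of the same length. The Cyp2f2 window holds the glucocorticoid receptor half-site AGAACA at position 34, a motif in 19.0% of all windows. The forkhead core TGTTTAC (3.65% of all windows) and the cyclic AMP response half-site TGACG (20.8%) were in none of the windows of the 5 genes. No motif overlaps another here. A match is a description of these letters and says nothing about binding.

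Per length of exon (FPKM, computed from TMM-scaled CPM), the 10 genes spanned a wide range. The length is that of all annotated exons of a gene merged, such as 8262 bp for Etnppl and 2414 bp for Ass1. The order between genes therefore depends in part on which exons are annotated. Ass1 was highest with 1382 ± 277 FPKM (mean ± SD over the 10 libraries) and ranked 53 among the 14820 genes tested. Arg1 followed at 828 ± 341 FPKM, Cps1 at 539 ± 155 and Cyp2f2 at 406 ± 103. Otc had 164 ± 64.9 FPKM, Asl 144 ± 51.8, Sds 117 ± 73.5 and Gls2 111 ± 21.2. Hal had 49.4 ± 14.2 FPKM, and Etnppl, at rank 2274, had 15.4 ± 8.43. Ass1 exceeded Arg1, Gls2 exceeded Hal and Hal exceeded Etnppl in 10 of 10 libraries. Arg1 exceeded Cps1 in 9, Cps1 exceeded Cyp2f2 in 8, Cyp2f2 exceeded Otc in 9 and Asl exceeded Sds in 8. Otc was above Asl in 7 of 10 libraries and Sds above Gls2 in 4 of 10, so these neighbours did not differ beyond their spread. Over libraries, the highest CPM was 7.88 times the lowest for Etnppl, 6.29 times for Sds and 4.18 times for Arg1, against 2.10 times for Gls2 and 2.16 times for Ass1.

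**Figure D1:**
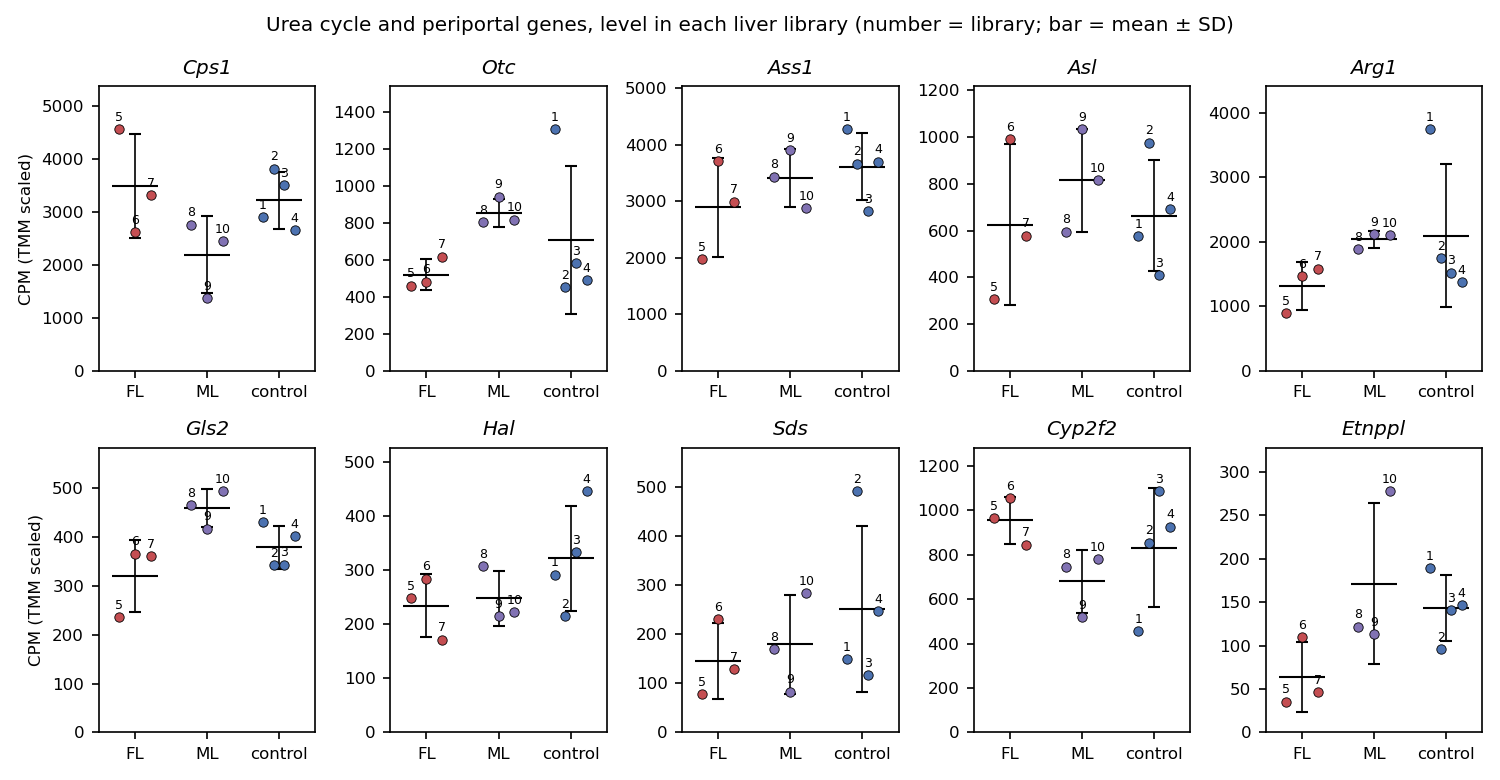
Level of each of the 10 genes in CPM (TMM scaled, each panel starting at 0) in every library, numbered, with FL, ML and control side by side and the bar giving the mean ± SD of 3, 3 and 4 libraries. Control 1 stands alone at the top for Otc (1308 CPM) and Arg1 (3741 CPM), FL 5 is lowest for 6 of the 10 genes, and the FL and ML points do not overlap for Otc, Arg1, Gls2, Cyp2f2 and Etnppl.

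No urea cycle enzyme and no other gene of the 10 passed a Benjamini-Hochberg adjusted p of 0.05 over all 14820 genes in edgeR's quasi-likelihood test, in any comparison. Of all genes tested, 2 passed in FL against control (0.0135%), 0 in ML against control (0%) and 1 in FL against ML (0.00675%), so few calls were made of any kind. At an unadjusted p under 0.05, 1 of the 10 genes stood out in FL against control (Etnppl), where 3.53% of all genes did. None did in ML against control, where 16.1% of all genes did, and 1 did in FL against ML (Etnppl), where 20% of all genes did. The 10 genes' count in the comparisons with ML is thus at or below the background share. The values behind this follow, gene by gene along the cycle, in CPM for libraries in numerical order.

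Cps1 (ENSMUSG00000025991, chr1:67123026-67231259, plus strand), which makes carbamoyl phosphate from ammonia and commits it to the cycle, had 4552, 2619.7 and 3309 CPM in FL livers, 2754, 1373 and 2442 CPM in ML livers, and 2898, 3811, 3503 and 2653 CPM in control livers. FL 5 was the highest library and ML 9 the lowest, and FL and ML overlapped by the pair FL 6 and ML 8. Means were 3493 ± 979 CPM in FL, 2190.0 ± 724 in ML and 3216 ± 534 in control (SD, n = 3, 3 and 4). The fitted log2 fold change was 0.12 (SE 0.33) in FL against control, -0.55 (SE 0.33) in ML against control and 0.67 (SE 0.35) in FL against ML, the last with an adjusted p of 0.283 (edgeR). In FL against control it was -0.11 without FL 5 and 0.073 without control 1. Without ML 9 it was -0.29 in ML against control and 0.41 in FL against ML.

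Otc (ENSMUSG00000031173, chrX:10252305-10321024, plus strand), which joins carbamoyl phosphate to ornithine to give citrulline, had 462, 483 and 619 CPM in FL livers, 806, 944 and 819.8 CPM in ML livers, and 1308, 455, 583 and 491 CPM in control livers. Every ML library was above every FL library, and above control 2, 3 and 4. Control 1 was above them all. Its mean was 521 ± 85.0 CPM in FL, 857 ± 76.2 in ML and 709 ± 403 in control. The log2 fold change was -0.44 (SE 0.38) in FL against control, 0.27 (SE 0.38) in ML against control and -0.72 (SE 0.41) in FL against ML (edgeR adjusted p 0.312 for the last). Control 1 decided both comparisons with control: without it the value was 0.032 in FL, and 0.75 in ML at an adjusted p of 0.071 (edgeR). In that fit 5177 of 14758 genes had an unadjusted p under 0.05 in ML against control. With all libraries and 1 surrogate variable, Otc was at -0.15 in ML against control.

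Ass1 (ENSMUSG00000076441, chr2:31470207-31520672, plus strand), which adds aspartate to citrulline, had 1974, 3714 and 2995 CPM in FL livers, 3438, 3901 and 2881 CPM in ML livers, and 4271, 3665, 2822 and 3703 CPM in control livers. The groups overlapped in each comparison, and FL 5 was the lowest library. Asl (ENSMUSG00000025533, chr5:130011258-130029247, minus strand), which splits argininosuccinate into arginine and fumarate, had 306, 991 and 578 CPM in FL livers, 595, 1032 and 816 CPM in ML livers, and 576, 974.9, 410.4 and 690.0 CPM in control livers. FL 5 was again lowest, while FL 6 and ML 9 were highest. Fitted log2 fold changes of Ass1 were -0.32 (SE 0.31) in FL against control, -0.086 (SE 0.30) in ML against control and -0.24 (SE 0.32) in FL against ML. Those of Asl were -0.085 (SE 0.42), 0.30 (SE 0.42) and -0.38 (SE 0.45) in the same order. Neither gene passed the threshold, and the values rested on single libraries. Without ML 9, FL against ML was -0.15 for Ass1 and -0.19 for Asl, and ML against control was -0.18 for Ass1 and 0.10 for Asl. Without control 1, Ass1 was at 0.0086 in ML against control and Asl at -0.15 in FL against control.

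Arg1 (ENSMUSG00000019987, chr10:24915221-24927484, minus strand), which releases urea from arginine, had 896, 1469.6 and 1582 CPM in FL livers, 1891, 2120.4 and 2101 CPM in ML livers, and 3741, 1751, 1521 and 1375 CPM in control livers. As for Otc, every ML library was above every FL library and above control 2, 3 and 4, and control 1 was the highest of the 10. Means were 1316 ± 368 CPM in FL, 2038 ± 127 in ML and 2097 ± 1107 in control. The log2 fold change was -0.67 (SE 0.39) in FL against control, -0.042 (SE 0.38) in ML against control and -0.63 (SE 0.41) in FL against ML. Without control 1 the value was -0.24 in FL against control and turned to 0.40 in ML against control. Otc and Arg1 thus shared their 4 highest libraries (control 1 and the 3 ML libraries). The same 4 libraries had the highest deviations of short genes, from -0.10 in ML 8 to 1.67 in ML 9. They also had the highest sums of small intestine markers. These were 97.1, 629 and 222 CPM in ML 8, 9 and 10, 375 CPM in control 1, and at most 93.6 CPM elsewhere. Nearly all of each sum was Fabp2, which liver also expresses. Vil1, the other marker tested, averaged 0.237 CPM in FL, 0.236 in ML and 0.250 in control livers. The part of the short-gene deviations and of these sums in the Otc and Arg1 values was not tested. For Cps1 the 3 ML libraries were among the 5 lowest.

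Nitrogen also enters periportal hepatocytes through glutamine and histidine. Gls2 (ENSMUSG00000044005, chr10:128194457-128210004, plus strand), the liver glutaminase that frees ammonia from glutamine, had 235, 366 and 361 CPM in FL livers, 466, 417 and 494 CPM in ML livers, and 431, 342, 344 and 401 CPM in control livers. It was the least variable of the 10, and all 3 ML libraries were above all 3 FL libraries. Its mean was 321 ± 74.0 CPM in FL, 459 ± 39.1 in ML and 379 ± 43.9 in control. The log2 fold change was -0.24 (SE 0.27) in FL against control, 0.28 (SE 0.27) in ML against control and -0.52 (SE 0.29) in FL against ML (edgeR adjusted p 0.304 for the last). Hal (ENSMUSG00000020017, chr10:93488768-93519304, plus strand), histidine ammonia-lyase, had 248, 285 and 172 CPM in FL livers, 307, 215 and 223 CPM in ML livers, and 292, 216, 333 and 447 CPM in control livers. The groups overlapped, and the log2 fold change was -0.46 (SE 0.32) in FL against control, -0.37 (SE 0.32) in ML against control and -0.082 (SE 0.34) in FL against ML, the last -0.19 without ML 9.

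Sds (ENSMUSG00000029597, chr5:120476526-120483932, plus strand), serine dehydratase, which turns serine into pyruvate and ammonia, had 78.3, 231 and 129 CPM in FL livers, 170.4, 83.5 and 284 CPM in ML livers, and 149.7, 493, 117 and 247 CPM in control livers. Control 2 was the highest library by far, and each group spanned more than the distance between group means. The log2 fold change was -0.78 (SE 0.57) in FL against control, -0.49 (SE 0.57) in ML against control and -0.30 (SE 0.60) in FL against ML. Without ML 9 it was -0.13 in ML against control and -0.66 in FL against ML. Cyp2f2 (ENSMUSG00000052974, chr7:27119909-27133660, plus strand), a cytochrome P450 that marks periportal hepatocytes in the mouse, had 966, 1055 and 845 CPM in FL livers, 746, 518 and 779 CPM in ML livers, and 456, 854, 1087 and 926 CPM in control livers. Every FL library was above every ML library, and control 1 and ML 9 were the lowest of the 10. The log2 fold change was 0.20 (SE 0.33) in FL against control, -0.29 (SE 0.33) in ML against control and 0.49 (SE 0.35) in FL against ML. It was -0.00018 in FL against control and -0.49 in ML against control without control 1, and -0.11 in ML against control and 0.31 in FL against ML without ML 9. Exons of Sds share 360 bp with Plbd2 and 141 bp with Gm15690 on the other strand, those of Cyp2f2 274 bp with Gm15883, and those of Gls2 97 bp with Spryd4. The strand setting of the counting is not given in the sources used here, so counts of these 3 genes may include reads of the other gene.

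Etnppl (ENSMUSG00000019232, chr3:130617448-130637521, plus strand), the phospho-lyase that breaks down phosphoethanolamine, had the lowest p of the 10 genes in FL against control and in FL against ML. It had 35.3, 109 and 46.2 CPM in FL livers, 122, 113 and 278 CPM in ML livers, and 189, 95.9, 141 and 147 CPM in control livers. FL 5 and FL 7 were below all other libraries, FL 6 was within the control range but below every ML library, and ML 10 was highest. Means were 63.6 ± 39.96 CPM in FL, 171 ± 92.8 in ML and 143 ± 38.1 in control (SD, n = 3, 3 and 4). The log2 fold change was -1.17 (SE 0.47, 95% interval -2.19 to -0.15) in FL against control, with an unadjusted p of 0.0279 and an adjusted p of 0.99967 (edgeR). It was -1.43 (SE 0.49, 95% interval -2.50 to -0.35) in FL against ML, with an unadjusted p of 0.0137 and an adjusted p of 0.238 (edgeR). The difference did not pass the threshold in either. It ranged from -1.81 without FL 6 to -0.88 without FL 5 in FL against control, and from -2.06 without FL 6 to -0.88 without ML 10 in FL against ML. In ML against control it was 0.26 (SE 0.45), and -0.29 without ML 10, 0.50 without ML 9 and 0.42 without control 1.

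**Figure D2:**
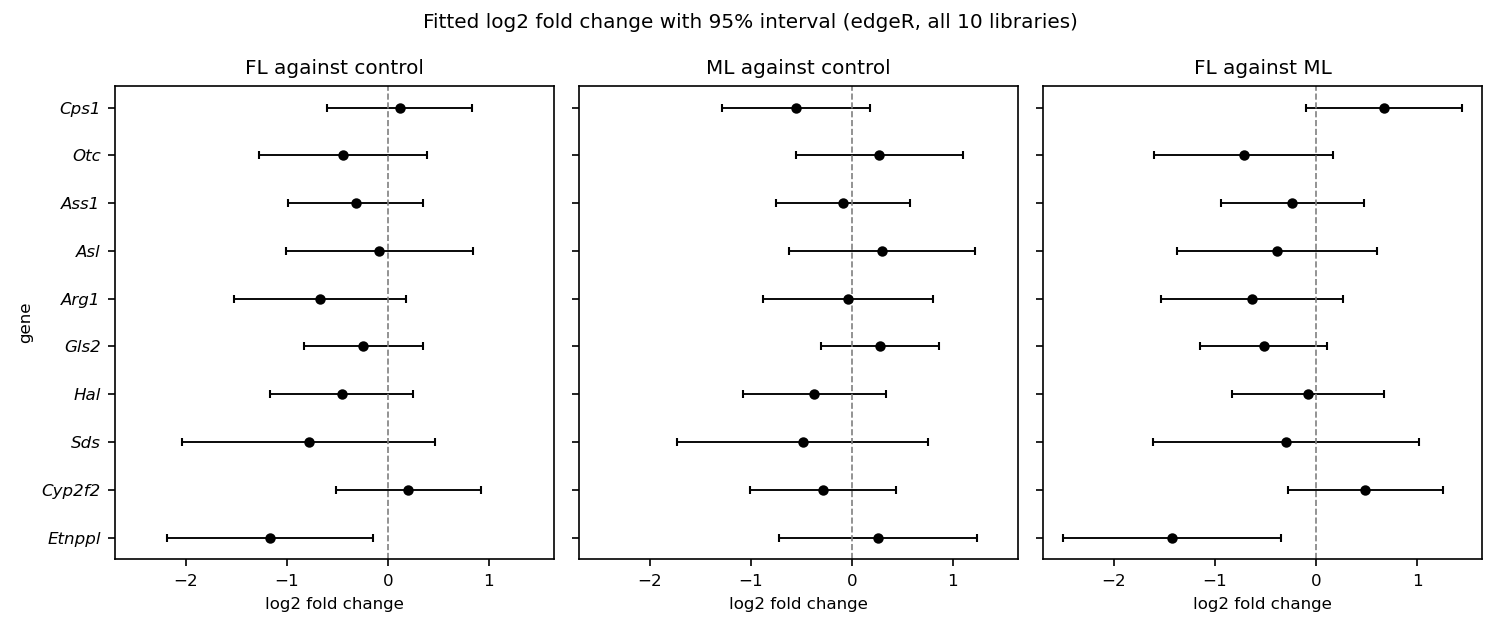
Fitted log2 fold change of each gene in FL against control, ML against control and FL against ML (edgeR, all 10 libraries), with bars for the 95% interval and a dashed line at 0. The interval of Etnppl lies below 0 in FL against control (-2.19 to -0.15) and in FL against ML (-2.50 to -0.35), and all other intervals cross 0.

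Read as a group, 8 of the 10 genes had a fitted value below 0 in FL against control, where 55.3% of all genes did. Their median log2 fold change was -0.38, where the median over all genes was -0.049. In ML against control 6 of 10 were below 0 (median -0.064), where 52.9% of all genes were (median -0.047). In FL against ML 8 of 10 were below 0 (median -0.34), where 47.9% of all genes were (median 0.041). With library sizes left unscaled these medians were -0.24, -0.28 and -0.0065, where all genes lay at 0.079, -0.25 and 0.37, and 7, 7 and 5 of the 10 genes were below 0. The comparisons with control share the 4 control libraries, so their values are not independent of each other.

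Groups did not overlap in CPM for 0 of the 10 genes in FL against control (5.71% of all genes tested did not overlap) and for 0 in ML against control (5.03%). In FL against ML they did not overlap for 5 of the 10 genes, where 31.7% of all genes did not. Otc, Arg1, Gls2 and Etnppl were lower in all FL than in all ML libraries, and Cyp2f2 was higher in all FL libraries. With control 1 and ML 9 left out, 4 of the 10 genes had an unadjusted p under 0.05 in FL against ML (edgeR), where 19.4% of all genes did, with log2 fold changes of -0.64 for Otc, -0.60 for Arg1, -0.58 for Gls2 and -1.66 for Etnppl, and none passed after adjustment. With 1 surrogate variable in the fit of all libraries, the difference was -0.039 for Otc, -0.046 for Arg1, -0.43 for Gls2, -0.10 for Cyp2f2 and -1.35 for Etnppl.

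The group values depended on single libraries. FL 5 was the lowest of the 10 libraries for 6 of the 10 genes (Ass1, Asl, Arg1, Gls2, Sds and Etnppl) and the highest for Cps1. Of all genes tested, 14.1% were lowest in FL 5, against 26.1% in ML 9 and 16.3% in control 1. The median of the 10 genes lay -0.77 from the control mean on the log2 scale in FL 5, and at -0.088 in FL 6 and -0.19 in FL 7. The median of the fitted values in FL against ML was -0.34 with all libraries and -0.082 without FL 5.

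**Figure D3:**
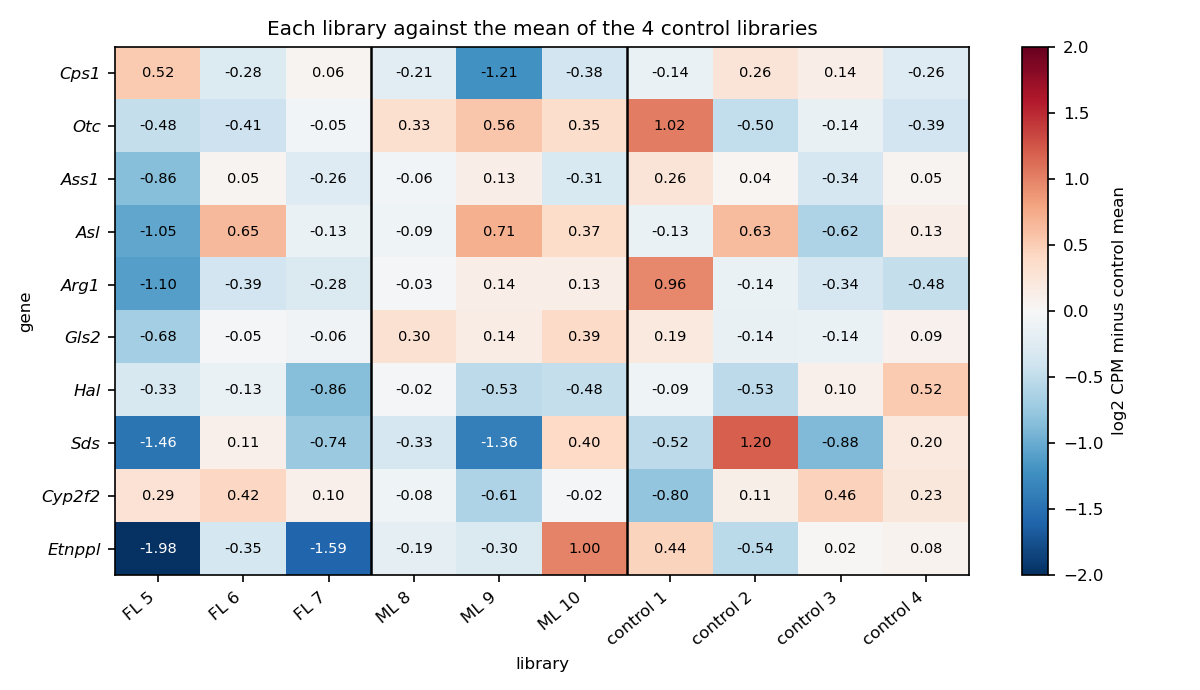
Difference of each library's log2 CPM from the mean of the 4 control libraries, for the 10 genes (rows) in FL, ML and control libraries (columns, divided by black lines), with blue below and red above the control mean. FL 5 is blue for 8 of 10 genes with Cps1 red, Otc is blue in all FL and red in all ML libraries, and control 1 is the reddest library for Otc and Arg1.

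Across libraries, Cps1 tended to be high where the other 4 enzymes of the cycle were low. The ratio of Cps1 to Otc, both in FPKM, was 7.53, 4.14 and 4.08 in FL livers, 2.61, 1.11 and 2.27 in ML livers, and 1.69, 6.39, 4.59 and 4.12 in control livers. All FL ratios were above all ML ratios, and control 1 lay with the ML libraries. Over the 10 libraries, Pearson's r of log2 CPM between Cps1 and the other enzymes was -0.53 with Otc, -0.57 with Ass1, -0.66 with Asl and -0.45 with Arg1 (Spearman's rho -0.56, -0.52, -0.71 and -0.42). It was -0.54, -0.63, -0.62 and -0.65 over the 8 libraries without control 1 and ML 9. Both sets of libraries include FL 5, which was highest for Cps1 and lowest for Ass1, Asl and Arg1, but not for Otc. In the set of 10, ML 9 was lowest for Cps1 and highest for Asl. The part of single libraries in the negative r of Cps1 was not tested, and values without FL 5 were not computed. The 6 pairs among Otc, Ass1, Asl and Arg1 all had r above 0, with a median of 0.58, and a median of 0.63 over the 8 libraries. Otc and Arg1 had r = 0.87 (rho 0.81), and 0.68 over the 8. Ass1 and Asl had r = 0.73 (rho 0.56), and 0.83 over the 8.

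Among the other genes, Etnppl varied most like Gls2, with r = 0.81 (rho 0.76), and 0.80 over the 8 libraries. Cyp2f2 ran against Otc, with r = -0.89 (rho -0.78), and -0.67 over the 8. Sds and Asl had r = 0.57 (rho 0.48) over all libraries and 0.91 over the 8. Over all 45 pairs, 29 had r above 0, with a median of 0.19. These correlations are descriptions: the points share library, depth and composition, they pool 3 groups, and the r values come without a test. By the same measure, the genes nearest to the mean of the 5 urea cycle enzymes over the 10 libraries were Abraxas1 (r = 0.93), Aspa (r = 0.93) and Upp2 (r = 0.92). Those nearest to Etnppl were Olfm2 (r = 0.93), B930094E09Rik (r = 0.92) and Grid1 (r = 0.91). Both sets were picked as the highest r in a search of the 14820 genes tested, the 10 genes left out. Over only 10 libraries, the size of such picked values is no evidence of shared control.

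**Figure D4:**
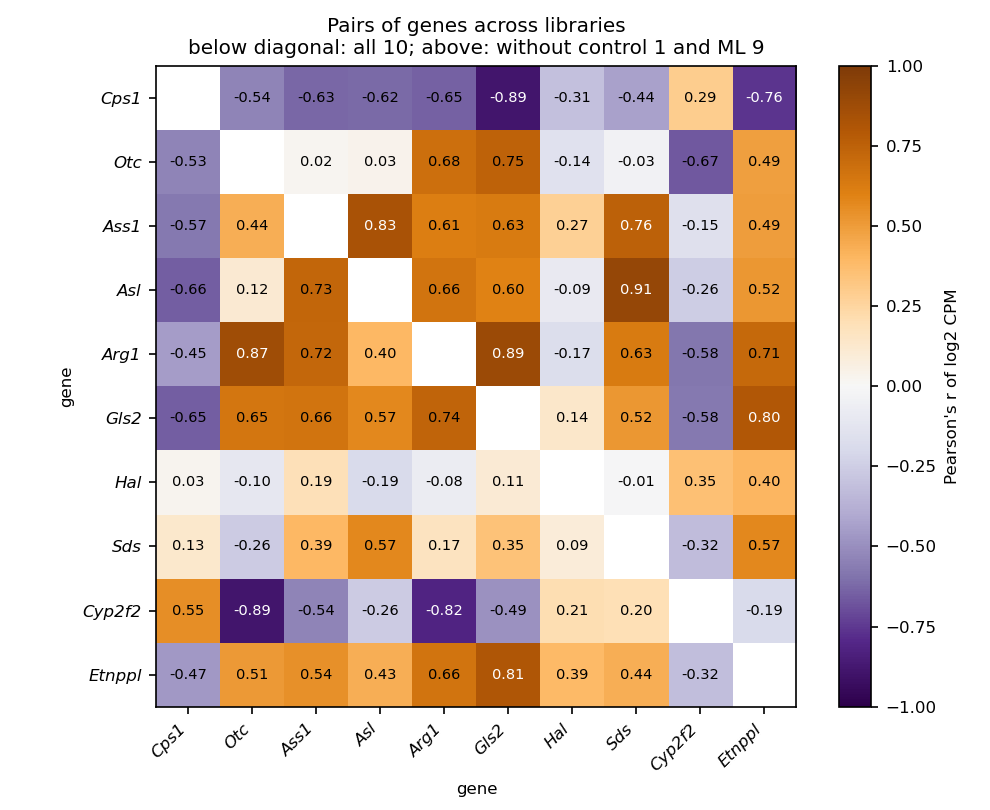
Pearson's r of log2 CPM for the 45 pairs of the 10 genes, over all 10 libraries below the diagonal and over the 8 libraries without control 1 and ML 9 above it (orange above 0, purple below 0). The Cps1 row and column are purple for the other 4 urea cycle enzymes and Gls2, and the pairs among Otc, Ass1, Asl and Arg1 are orange or near white.

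The genes that feed the cycle were taken from a list of 17 (transporters, the N-acetylglutamate synthase that activates Cps1, and enzymes of aspartate, glutamate and glutamine), of which 15 were tested and none passed after adjustment. In FL against control 4 were above and 11 below 0 (median -0.046), and 1 had an unadjusted p under 0.05, Asns, asparagine synthetase. Asns lay at 6.52 to 7.78 CPM in FL, 0.310 to 2.02 CPM in ML and 0.684 to 1.48 CPM in control livers, with a log2 fold change of 2.75 (SE 0.52) and an adjusted p of 0.35 (edgeR) against control. Nags, the N-acetylglutamate synthase, averaged 64.9 ± 10.4 CPM in FL, 67.7 ± 27.6 in ML and 44.4 ± 3.26 in control livers, and its fitted difference from control was 0.55 (SE 0.29) for FL livers and 0.61 (SE 0.29) for ML livers on the log2 scale. In ML against control 6 were above and 9 below 0 (median -0.29), and 1 had an unadjusted p under 0.05, the mitochondrial glutamate carrier Slc25a22, at -2.09 (SE 0.81). Of all genes, 3.53% had an unadjusted p under 0.05 in FL against control and 16.1% in ML against control. The shares of all genes below 0 were 55.3% and 52.9%.

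Breakdown of histidine, serine, glycine and threonine was followed in a list of 14 genes, of which 12 were tested and none passed. In FL against control 9 of 12 were below 0 (median -0.27), where 55.3% of all genes were. In ML against control 9 of 12 were below 0 (median -0.22), where 52.9% of all genes were. Each comparison had 1 gene at an unadjusted p under 0.05, Hdc, against 3.53% and 16.1% of all genes. Hdc, which makes histamine from histidine, averaged 6.75 ± 3.32 CPM in FL, 5.22 ± 1.70 in ML and 20.6 ± 17.3 in control livers. Amdhd1, an enzyme further down the pathway that Hal opens, averaged 127 ± 31.9 CPM in FL, 126 ± 39.9 in ML and 192 ± 36.7 in control livers, which put FL livers at -0.60 (SE 0.32) and ML livers at -0.61 (SE 0.32) from control on the log2 scale. Of 33 genes for breakdown of other amino acids, 29 were below 0 in FL against control (median -0.25) and 17 in ML against control (median -0.015), and none passed. Tdo2, which opens the tryptophan pathway, averaged 1258 ± 253 CPM in FL, 2819.6 ± 702 in ML and 2269.9 ± 720 in control livers. Its log2 fold change was -0.85 (SE 0.34) in FL against control and -1.16 (SE 0.36) in FL against ML, neither past the adjusted threshold.

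Genes that make or use phosphoethanolamine, the substrate of Etnppl, formed a list of 12, all tested. In FL against control 11 of the 12 were below 0 (median -0.25) with none at an unadjusted p under 0.05. In ML against control 8 were below 0 (median -0.27) with 1 at that level, the choline kinase gene Chka at -1.54 (SE 0.64). Of all genes, 55.3% and 52.9% were below 0 in these comparisons, and 3.53% and 16.1% had an unadjusted p under 0.05. None of the 12 passed after adjustment.

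Other zonated genes were compared in lists of 30 periportal and 30 pericentral hepatocyte genes, all tested, none past the adjusted threshold in any comparison. Of the periportal genes, 22 were below 0 in FL against control (median -0.24), 16 in ML against control (median -0.0064) and 22 in FL against ML (median -0.27). Of the pericentral genes, 14 were below 0 in FL against control (median 0.050), 19 in ML against control (median -0.28) and 11 in FL against ML (median 0.29). Of all genes, 55.3%, 52.9% and 47.9% were below 0 in these comparisons, in the same order. Periportal genes with the lowest p included G6pc, glucose-6-phosphatase, with 293 ± 178 CPM in FL, 351 ± 334 in ML and 862 ± 174 in control livers, or -1.56 (SE 0.59) on the log2 scale in FL against control. In ML against control they included Hsd17b6, at 1.34 (SE 0.37). Pericentral Tbx3, a transcription factor known as a Wnt target, averaged 49.8 ± 30.5 CPM in FL, 7.74 ± 1.29 in ML and 16.9 ± 12.4 in control livers, at 1.55 (SE 0.52) in FL against control. Its FL range, 30.0 to 84.9 CPM, overlapped the control range of 7.54 to 35.0 CPM. The pericentral genes next by p in FL against control went in opposite directions, Sp5 at 1.24 (SE 0.43) and Csad at -1.06 (SE 0.42). The medians of these lists are descriptions and were not tested.

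Genes known to answer glucagon, cyclic AMP or glucocorticoids formed a list of 24, all tested, which includes Cps1, Ass1, Arg1 and Sds. In FL against control 22 were below 0 (median -0.77), with 7 at an unadjusted p under 0.05, all lower. In ML against control 20 were below 0 (median -0.77), again with 7 at that level, all lower. The shares over all genes at that level were 3.53% in FL and 16.1% in ML, and those below 0 were 55.3% and 52.9%. The list was chosen with earlier results of these data known, so setting its counts beside these shares is no independent test. None of the 24 passed after adjustment, and the 4 urea cycle and serine genes were not among these 7 in either comparison. Nr4a1, an immediate early gene induced by cyclic AMP, averaged 1.73 ± 1.41 CPM in FL, 0.827 ± 0.417 in ML and 13.4 ± 5.52 in control livers, which put FL livers at -2.94 (SE 0.60) and ML livers at -4.001 (SE 0.64) from control on the log2 scale. Of the 24 listed regulators of urea cycle and amino acid genes, 23 were tested and none passed. In FL against control 14 were below 0 (median -0.19) and in ML against control 13 (median -0.10). Ppargc1a, a coactivator of the fasting response, averaged 3.96 ± 1.31 CPM in FL, 5.87 ± 3.73 in ML and 9.55 ± 2.87 in control livers, at -1.27 (SE 0.48) in FL against control. Cebpa, a hepatocyte factor known to act on urea cycle genes, averaged 411 ± 12.2 CPM in FL, 619 ± 190 in ML and 358 ± 125 in control livers, at 0.79 (SE 0.34) in ML against control.

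Erythroid, Kupffer cell, T and NK cell, B cell and small intestine markers were highest in ML 9. So were hepatocyte (126712 CPM), stellate cell and fibroblast (426 CPM), neutrophil (8.02 CPM) and kidney proximal tubule (161 CPM) markers, while cholangiocyte markers were lowest there (22.5 CPM). Control 1 was second for erythroid (625 CPM), Kupffer cell (598 CPM), B and plasma cell (27.6 CPM) and small intestine (375 CPM) markers. Endothelial markers were highest in control 2 (325 CPM) and lowest in ML 10 (151 CPM). Erythroid markers (5 of 7 tested) summed to 127 to 249 CPM in FL, 313 to 2114 CPM in ML and 184 to 625 CPM in control libraries. Kupffer cell and macrophage markers (10 of 10 tested) summed to 311 to 446 CPM in FL, 297 to 1559 CPM in ML and 299 to 598 CPM in control libraries. T and NK cell markers (8 of 10 tested) summed to 3.52 to 6.51 CPM in FL, 4.96 to 14.5 CPM in ML and 3.54 to 6.24 CPM in control libraries. Small intestine, which also expresses Cps1 and Otc, was followed with 6 markers, of which 2 were tested (Vil1 and Fabp2), and these summed to 39.2 to 93.6 CPM in FL, 97.1 to 629 CPM in ML and 61.5 to 375 CPM in control libraries. Nearly all of that sum was Fabp2, which liver also expresses, and Lct, Cdx2 and Alpi did not pass the filter on low counts. Kidney proximal tubule markers (2 of 6 tested, Aqp1 and Lrp2) summed to 61.4 to 92.8 CPM in FL, 87.4 to 161 CPM in ML and 81.7 to 139 CPM in control libraries, and Kap and Slc22a12 were at 0 in all 10 libraries. The part of these markers in the differences between FL and ML was not tested. Without ML 9, the log2 fold change in FL against ML was -0.66 for Otc, -0.62 for Arg1, -0.60 for Gls2, -1.67 for Etnppl and 0.31 for Cyp2f2.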

How the data were processed

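Polyadenylated liver RNA was sequenced as directional paired-end libraries, per the labels' protocols. The values as deposited are unnormalized read counts, 1 row per gene. STAR, featureCounts and the GRCm38 build are what the authors name, per the submitters' processing notes. Of their versions, annotation release and strand setting, nothing is given in the sources used here. GENCODE M21 (GRCm38) supplied symbols, coordinates and exon lengths for 45229 of 46071 rows.

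Tests used edgeR 4.0.16 under R 4.3.3. Genes were filtered by filterByExpr (minimum count 10), scaled by TMM and fitted over all 10 libraries, with a robust two-sided quasi-likelihood F test. This left 14820 genes, 7 residual degrees of freedom and a common biological coefficient of variation of 0.448. The procedure was tested on simulated data. SE is the log2 fold change divided by the square root of F. Benjamini-Hochberg adjustment ran over all genes, with a threshold of 0.05. Replicates were averaged within the labelled group. The 10 genes are named throughout, and each list by up to 3 genes with the lowest p. Members and lists were chosen with earlier results of these data known. Alternatives were DESeq2 1.42.0, limma-voom 3.58.1, RLE factors, no filter, the compared groups only, a surrogate variable (sva 3.50.0), removal of a trend on GC content and exon length, weights for sample quality, libraries left out and, added after seeing the data, unscaled library sizes.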

Additional observations from a re-analysis of the deposited data

Results flagged for a closer look

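In the 4 control libraries, control 1 was far above the other 3 for 2 of the 10 genes by Dixon's criterion at the 95% level for 4 samples, which sets the gap to the next library against the range. Otc had 1308 CPM in control 1, and the gap took 0.850 of the range. Arg1 had 3741 CPM in control 1, and the gap took 0.841 of the range. Chance flags about 1 in 20 groups. The share of all genes that the criterion flags was not computed, so the 2 genes cannot be set against it. For short genes, too, control 1 lay apart, with a median log2 deviation of 0.51 against -0.50 to -0.34 in the other 3 control libraries.

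For 3 genes every FL library lay on one side of the control mean and every ML library on the other. The share of all genes sorted in this way was not computed, and FL and ML did not overlap in CPM for 31.7% of all genes tested. The fitted log2 fold change in FL against ML was -0.72 for Otc and -0.52 for Gls2, both lower in FL, and 0.49 for Cyp2f2, higher in FL. This sorting by side was not itself tested, and edgeR's adjusted p in FL against ML was 0.312 for Otc, 0.304 for Gls2 and 0.411 for Cyp2f2. With 1 surrogate variable the difference was -0.039 for Otc, -0.43 for Gls2 and -0.10 for Cyp2f2. All of these control means include control 1, the highest library for Otc (1308 CPM), the highest control library for Gls2 (431 CPM) and the lowest library for Cyp2f2 (456 CPM). Without control 1 the fitted value in FL against control was 0.032 for Otc, -0.18 for Gls2 and -0.00018 for Cyp2f2. The sorting by side was not repeated without it.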

How the results depend on the processing

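No paired analysis was possible because replicate numbers go from 1 to 10 across the whole series and no 2 groups share any. The count of the 10 genes past the adjusted threshold was 0 in each comparison under every alternative, with the exception of DESeq2 in FL against ML, which called 1, Etnppl at -1.43 (SE 0.51, adjusted p 0.046). DESeq2 also called more of all genes, with 52 in FL against control, 46 in ML against control and 248 in FL against ML, where edgeR called 2, 0 and 1. Over the other alternatives these counts ran from 0 to 4.

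Of 500 alternative values of the 10 genes' log2 fold changes, 471 kept the sign of the reported value and 29 did not. The cause was not tested. With 1 surrogate variable, ML against control turned to -0.15 for Otc, 0.21 for Sds and 0.23 for Cyp2f2, and FL against ML to 0.0085 for Ass1 and -0.10 for Cyp2f2. It also shrank FL against ML to -0.039 for Otc and -0.046 for Arg1. With unscaled library sizes, Asl turned to 0.033 in FL against control, to -0.0076 in ML against control and to 0.040 in FL against ML. In FL against ML they put Ass1 at 0.13 and Hal at 0.21. Arg1 in ML against control was 0.078 with limma-voom, 0.37 with control 1 and ML 9 left out, and 0.37 with sample quality weights. Otc in FL against control was 0.036 with control 1 and ML 9 left out.

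Leaving out 1 library at a time, FL against control ranged from -0.11 to 0.29 for Cps1, from -0.61 to 0.032 for Otc, from -0.58 to 0.25 for Asl and from -0.00018 to 0.36 for Cyp2f2. ML against control ranged from -0.19 to 0.014 for Ass1, from -0.20 to 0.40 for Arg1, from -0.99 to 0.072 for Sds and from -0.29 to 0.50 for Etnppl. FL against ML ranged from -0.23 to 0.11 for Hal and from -0.79 to 0.21 for Sds. With 3 or 4 libraries a group, and a 95% interval of -0.60 to 0.84 even for the abundant Cps1 in FL against control, the spread between libraries and not the count depth set the precision.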
